A study of Caenorhabditis elegans with 2 samples.

Results

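Of the 1959 peaks that the authors kept for HLH-30-GFP in late embryos of Caenorhabditis elegans, 436 (22.3%) lay on an autosome, in the stretch between 2 protein-coding genes that are transcribed in the same direction. These tandem peaks were chosen by position only. The summit had to lie outside the span of every protein-coding gene, and the nearest protein-coding genes to its left and right had to be on the same strand. The autosomes held 1541 of the 1959 peaks, and 973 of these lay between genes. The tandem peaks were compared with the 504 autosomal peaks between divergent genes, whose starts face each other across the gap, and with the 381 peaks in introns of autosomal protein-coding genes. Only 33 autosomal peaks lay between convergent genes, and 187 lay in exons. The X chromosome had 418 peaks, 159 of them between tandem genes, and these were not members.

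The samples were 2 biological replicates of whole hermaphrodites at the late embryonic stage, of strain OP433. All animals were unc-119(tm4063) III and carried wgIs433, an integrated transgene that makes HLH-30 fused at its C terminus to GFP-FLAG. Chromatin was precipitated with an antibody to GFP. No sample lacked the transgene, and the peaks come from 1 strain in which all cells of the embryo were pooled. The authors' optimal list, in the build ce11, was made from both replicates by irreproducible discovery rate, a method that weighs how far replicates rank peaks alike. Its 1959 signals are the highest of the pooled list, so a single member need not have been called in each replicate. The signal is the authors' value for a peak within its own list, and read totals were not used here, so the depth is unknown.

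HLH-30 is the worm counterpart of mammalian TFEB, a basic helix-loop-helix leucine zipper factor known for driving genes of autophagy and of the lysosome when nutrients are scarce. Factors of this family bind the palindromic E-box CACGTG as dimers, and flanking bases change how well they bind. Much of the worm genome is compact, and many neighbouring genes run in the same direction, some of them transcribed together as operons. A peak between tandem genes sits downstream of 1 gene and upstream of the next, so the sequence under it has a direction that can be read along both transcripts. Below, the gene that the gap leads into is called the downstream gene, the other the upstream gene, and the strand of both the sense strand.

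The following windows of 101 bases around summits show the words that recurred under tandem peaks. Each reads 5′ to 3′ along the sense strand, with the summit at base 51, and was taken from the RefSeq sequence of WBcel235, the same assembly as ce11. Capitals mark every match, on either strand, to 6 words. The E-box is CACGTG, with TCACGTGA as its longer form, and the E-box variant is CATGTG, which is CACATG on the other strand. The repeat is GAGAGA, or TCTCTC on the other strand. The remaining words are ACGCAG, which is CTGCGT on the other strand, and CGTCTC, which is GAGACG there. These last words overlap in the compound word CTGCGTCTC, and TCACGTGA contains CACGTG. The first set shows the compound word and its parts under strong peaks, upstream of the autophagy genes sqst-1, epg-9 and atg-18 and of C01G6.4, at chrIV:12032604-12032704, chrIV:2599768-2599868, chrV:8631499-8631599 and chrII:9274175-9274275.
sqst-1: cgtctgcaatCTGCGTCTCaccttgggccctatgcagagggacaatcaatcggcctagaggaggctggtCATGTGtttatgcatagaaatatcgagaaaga
epg-9: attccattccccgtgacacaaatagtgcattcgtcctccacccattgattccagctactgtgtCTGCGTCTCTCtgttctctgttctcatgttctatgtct
atg-18: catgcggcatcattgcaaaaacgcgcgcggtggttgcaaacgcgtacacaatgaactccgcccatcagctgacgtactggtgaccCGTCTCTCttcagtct
C01G6.4: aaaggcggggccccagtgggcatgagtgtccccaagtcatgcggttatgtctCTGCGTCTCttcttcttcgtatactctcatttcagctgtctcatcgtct

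The second set shows E-boxes, upstream of atg-9, of atg-13 and of the uncharacterised genes Y71H2AM.3 and Y97E10AR.1, at chrV:349187-349287, chrIII:8158550-8158650, chrIII:2804614-2804714 and chrV:8000929-8001029. The third set shows the repeat read as TCTCTC along the sense strand, upstream of ubc-8 and hil-7 at chrIV:2708657-2708757 and chrIV:6646118-6646218. The last windows, at chrIII:3801483-3801583 upstream of mtm-3 and chrII:6348546-6348646 upstream of lgg-1, are those of 2 of the strongest tandem peaks. The E-box variant and CGTCTC stand in both, on either strand, and CACGTG in neither.
atg-9: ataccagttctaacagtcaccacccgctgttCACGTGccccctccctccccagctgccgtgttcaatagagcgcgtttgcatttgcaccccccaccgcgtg
atg-13: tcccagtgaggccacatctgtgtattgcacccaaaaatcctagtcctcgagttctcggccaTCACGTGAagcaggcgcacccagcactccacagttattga
Y71H2AM.3: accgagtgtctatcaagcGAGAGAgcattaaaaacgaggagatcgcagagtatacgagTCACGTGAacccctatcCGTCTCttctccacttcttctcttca
Y97E10AR.1: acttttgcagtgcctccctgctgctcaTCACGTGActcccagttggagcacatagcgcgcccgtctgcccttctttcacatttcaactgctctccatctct
ubc-8: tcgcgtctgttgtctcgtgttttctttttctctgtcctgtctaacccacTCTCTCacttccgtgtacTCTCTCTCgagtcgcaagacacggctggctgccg
hil-7: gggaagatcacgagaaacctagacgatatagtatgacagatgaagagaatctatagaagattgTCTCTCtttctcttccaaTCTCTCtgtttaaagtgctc
mtm-3: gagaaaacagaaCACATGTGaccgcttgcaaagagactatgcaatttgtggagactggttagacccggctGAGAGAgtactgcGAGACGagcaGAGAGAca
lgg-1: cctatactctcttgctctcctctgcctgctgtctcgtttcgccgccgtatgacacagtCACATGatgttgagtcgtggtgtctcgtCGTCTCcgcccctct

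The strongest tandem peaks lay next to genes with a range of functions, among them several of autophagy. The peak upstream of tos-1, a gene named as a target of splicing, had the highest signal at 813. It ranked 4th in the optimal list and 4th in each replicate list, with 259 in replicate 1 and 550 in replicate 2. The peak upstream of mtm-3, which encodes a myotubularin-type lipid phosphatase, had a signal of 793. It ranked 9th in replicate 1 with 233 and 3rd in replicate 2 with 559, and lay nearer the end of the upstream gene xbx-5, at 368 bp, than the start of mtm-3, at 1066 bp. Upstream of T28B8.1 the signal was 705, with 207 in replicate 1 and 494 in replicate 2. Upstream of lgg-1, which encodes the ubiquitin-like protein that coats autophagosomes, it was 675, with 215 in replicate 1 and 462 in replicate 2. These 4 peaks stood above the rest of the members, the fifth of which, upstream of the ubiquitin-conjugating enzyme gene ubc-8, had a signal of 494.

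Among the other peaks of the 20 strongest, that upstream of sup-26, an RNA-binding protein gene, had a signal of 479. The one upstream of aakg-1, which encodes a gamma subunit of AMP-activated kinase, had 465 and lay 8276 bp from its start in a gap of 20592 bp. Those upstream of hil-7, a linker histone gene, and imb-3, an importin beta family gene, had 443 and 433. The signal was 431 upstream of sqst-1, the autophagy receptor gene, and 392 upstream of epg-9, a gene of the kinase complex that starts autophagy. It was 377 upstream of C01G6.4, 375 upstream of lin-23, an F-box gene, and 373 upstream of ogt-1, which encodes the O-GlcNAc transferase. The ogt-1 peak lay 175 bp from the end of the upstream gene nuo-4, a respiratory complex gene, and 2054 bp from the start of ogt-1. The remaining peaks of the 20, between 310 and 354, lay upstream of ubxn-3, Y54G11A.2, atg-9, Y17G7B.17, Y45G5AL.1 and bet-1, a bromodomain gene. The Y54G11A.2 peak lay 76 bp from the end of hmg-1.1 and the Y45G5AL.1 peak 152 bp from the end of lgc-29.

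All of the 20 ranked 150th or better in both replicate lists. Of the 20, 9 lay nearer the end of the upstream gene than the start of the downstream gene, and 5 lay within 500 bp of that start. CACGTG stood within 50 bp of the summit in 4 of them, CATGTG in 5, GAGAGA in 9, ACGCAG in 9 and CGTCTC in 11. Over all optimal peaks the shares were 21.8%, 17.1%, 30%, 20.5% and 22.7%, in the same order. The CACGTG count is near its share over all optimal peaks, and no difference was tested for these 20. None of the 5 hexamers stood there in 3 of them, the peaks upstream of tos-1, sup-26 and ogt-1.

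Most members had a summit in both replicate lists, as their choice from a list made from both replicates largely fixes. A summit lay within 100 bp in the replicate 1 list for 421 of the 436 tandem peaks and in the replicate 2 list for 433, and 418 (95.9%) had one in both, near the 95.4% of all optimal peaks. The 2 replicate lists differ in length, with 11695 and 30000 peaks. The 15 members with no summit in the replicate 1 list ranked between 740 and 1943 in the optimal list, and included the peaks upstream of hsp-12.2, a small heat shock protein gene, unc-31 and ceh-43. Over the 418 matched peaks, which share the 2 libraries, the Pearson correlation of log2 signal was 0.81 and Spearman's rho 0.69. Among the 1959 strongest peaks of both replicates at once were 314 tandem peaks (72.0%), where 67.9% of all optimal peaks were. The difference from the other optimal peaks was 5.24 percentage points (Newcombe 95% interval 0.275 to 9.92, two-sided Fisher's exact test over peaks, p = 0.0416). It passed in 3 of 6 other settings of the same exact test, at 5.05 points with summits within 500 bp merged (p = 0.0470), 6.44 points in gaps of at least 500 bp (p = 0.0186) and 5.01 points with matching within 200 bp (p = 0.0456). It was lost in the other 3 (Fisher's exact tests): it was -0.167 points (p = 0.836) among the 979 strongest peaks of the list, 4.27 points (p = 0.118) when summits had to lie within 50 bp, and 4.25 points (p = 0.101) with noncoding genes counted as neighbours.

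**Figure D1:**
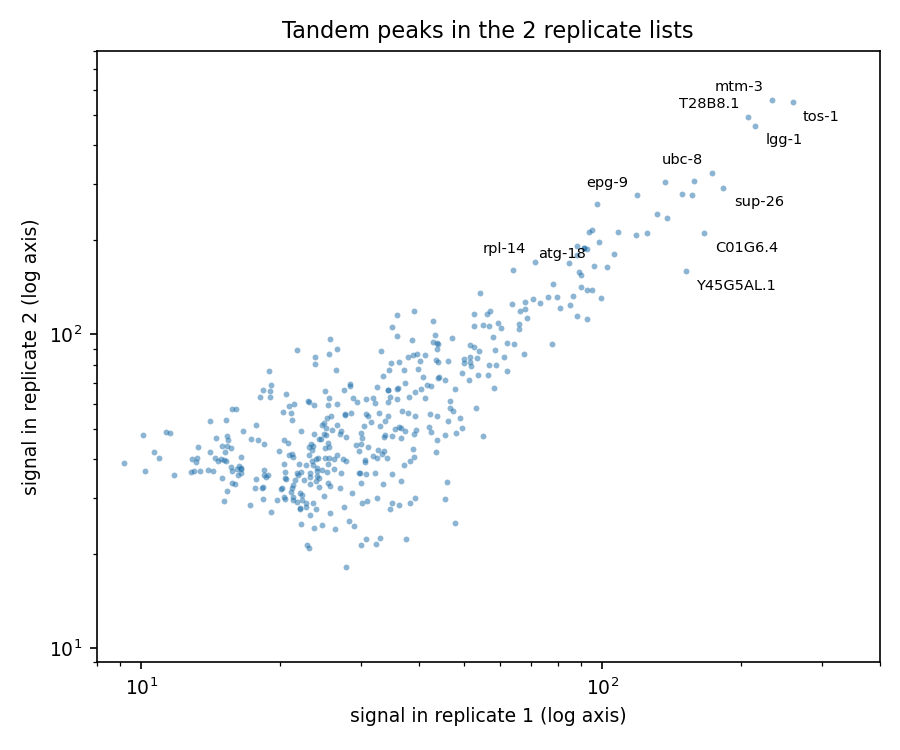
Signal of the tandem peaks in replicate 1 (horizontal, log axis) and replicate 2 (vertical, log axis), 1 point for each of the 418 peaks matched within 100 bp in both lists, with the downstream gene of some strong peaks named. The points run together along a rising band, with tos-1, mtm-3, T28B8.1 and lgg-1 at the top right, and the scatter is wider among weak peaks.

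The signal of tandem peaks lay between 47.9 and 813 with a median of 78.2. Over all 1959 peaks the signal lay between 47.7 and 1042 with a median of 72.7. The 979 strongest peaks, 50% of the list by construction, held 243 tandem peaks (55.7%) against 258 divergent peaks (51.2%) and 191 intronic peaks (50.1%). The difference from divergent peaks was 4.54 points (interval -1.85 to 10.9, Fisher's exact test over peaks, Benjamini-Hochberg adjusted p = 0.169), and from intronic peaks 5.60 points (interval -1.25 to 12.4, adjusted p = 0.169). Neither difference passed the test. The last members inside the list lay upstream of unc-62, a homeodomain factor gene, at 48.03, ptr-21 at 48.02 and T23B3.2 at 47.90. The first tandem peaks outside it, in the pooled list, lay upstream of Y22D7AR.6 at 47.62, eif-2Bdelta at 47.56 and tax-6 at 47.52. The unc-62 peak had no summit in the replicate 1 list and ranked 1161st in replicate 2. Signal showed little relation to the distance from the downstream start (Spearman's rho -0.05 over 436 peaks, a description of 1 list).

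Tandem peaks lay towards the downstream gene, and many lay over 500 bp from its start. The summit was nearer the start of the downstream gene than the end of the upstream gene in 261 of 436 peaks (59.9%, exact 95% interval 55.1 to 64.5, two-sided exact binomial test against an even split, p = 4.44e-05). P-values here are over peaks, which are not biological replicates and share the same 2 libraries. Cut into 5 equal parts from the upstream to the downstream gene, the gaps held 60, 78, 97, 106 and 95 summits. The part next to the upstream gene was the emptiest. The median distance was 764 bp to the downstream start and 1014 bp to the upstream gene's end, in gaps with a median length of 2311 bp. Within 500 bp of the downstream start lay 192 summits (44.0%), against 143 (32.8%) within 500 bp of the upstream gene's end.

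Far from both genes lay 60 summits (13.8%), over 2000 bp from either gene edge, with signals between 48.0 and 465 and a median of 68.8. The nearest annotated start of any protein-coding gene was that of the downstream gene for 373 of the 436 peaks (85.6%). At the other end, 14 peaks lay in gaps of at most 250 bp. The shortest, of 75 bp, lies upstream of Y39B6A.43 and held a peak with a signal of 74.0, and the strongest peak in such a gap, with 200 in a gap of 247 bp, lay upstream of epg-4. Others of the 14 lay upstream of egl-30, the gene of a G protein alpha subunit, after the ribosomal protein gene rpl-27, and upstream of the proteasome subunit gene rpn-11. Whether such pairs are joined in operons was not looked up.

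**Figure D2:**
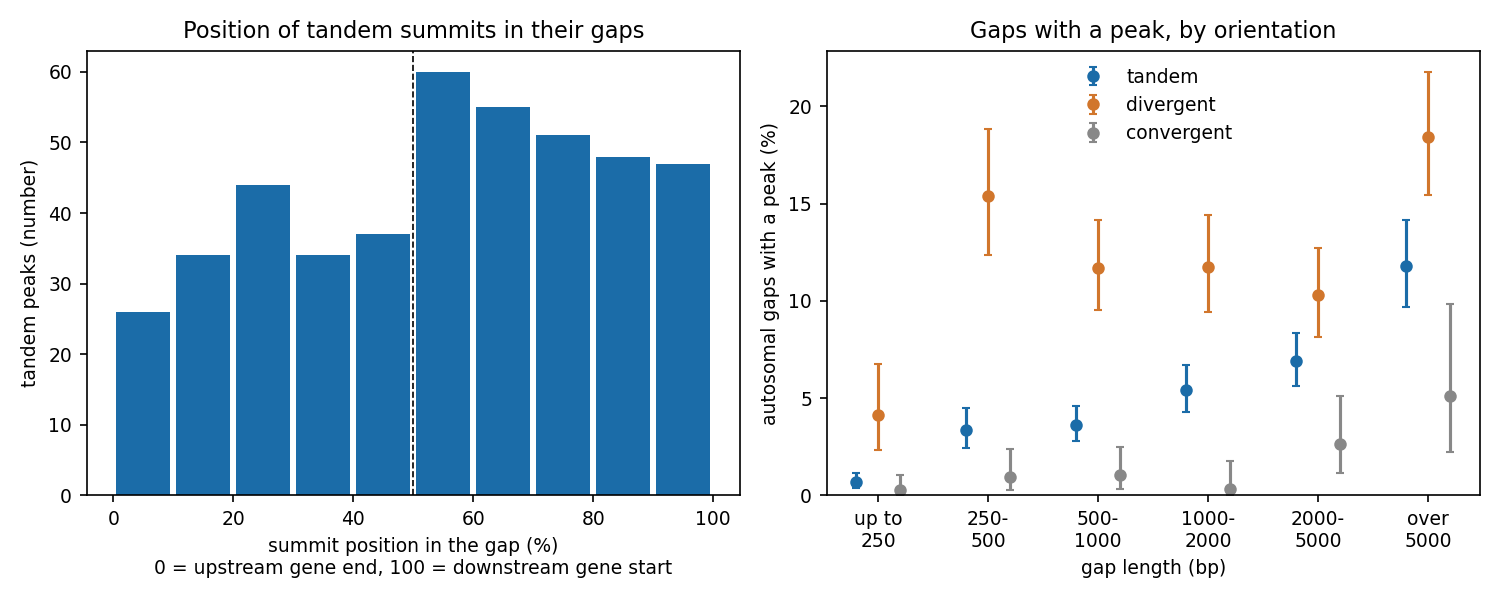
Left, the number of tandem peaks by the place of the summit in its gap, in bins of 10% of the gap between the end of the upstream gene (0) and the start of the downstream gene (100), with the middle dashed. Right, the share of autosomal gaps with a peak by gap length for tandem, divergent and convergent gaps, with exact 95% binomial intervals. The bins past the middle hold 47 to 60 summits and those before it 26 to 44, and the share of gaps with a peak is lower for tandem than for divergent gaps in every length class.

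Gaps between tandem genes held a peak less often than gaps between divergent genes. Of 8716 autosomal tandem gaps 393 (4.51%) held at least 1 peak, against 448 of 3640 divergent gaps (12.3%) and 28 of 2341 convergent gaps. In a logistic fit over all gaps (n = 14697) with log2 length as covariate, the odds of a peak in a tandem gap were 0.395 times those in a divergent gap of equal length (95% interval 0.342 to 0.456, Wald test, p = 1.21e-36). A divergent gap has a gene start at either end and a tandem gap at 1 end. The orientation of a gap thus sets its number of starts, and the fit cannot tell these apart. The share of tandem gaps with a peak was 0.697% up to 250 bp, 3.35% between 250 and 500 bp, 3.61% between 500 and 1000 bp, 5.39% between 1000 and 2000 bp, 6.91% between 2000 and 5000 bp and 11.8% above. Long gaps thus held a peak more often but at a lower density. Tandem gaps between 250 and 500 bp had 90.3 peaks per Mb, the highest of the 6 length classes, and those over 5000 bp had 16.3, the lowest.

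The tandem peaks were spread over all 5 autosomes, with 87 on chromosome I, 88 on II, 103 on III, 83 on IV and 75 on V. Per Mb of tandem gap this was 36.3 on I, 28.7 on II, 44.4 on III, 22.1 on IV and 16.5 on V. Among the gaps with a peak, 358 had 1 peak, 29 had 2, 4 had 3 and 2 had 4. Gaps with 4 peaks lay upstream of Y54G2A.11 (5430 bp, signals between 80.4 and 203) and of ret-1, a reticulon gene (5411 bp, signals between 69.7 and 172). Those with 3 lay upstream of mstr-1, egl-27, a gene for a chromatin protein of the MTA family, mnk-1, a kinase gene, and sup-26, whose gap of 5616 bp held signals between 117 and 479.

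Under the summits, all 6 words shown in the printed windows were more frequent than in windows of the same length centred 500 bp to either side. These words were chosen with earlier results of these data known, so the tests on them are not independent support. The E-box CACGTG stood within 50 bp of the summit in 77 tandem peaks (17.7%, exact interval 14.2 to 21.6), where 21.8% of all optimal peaks had it, against 1.95% of the flanking windows (two-sided exact sign test, the larger p of both flanks, 9.10e-15, adjusted over 10 words 1.52e-14). The longer TCACGTGA stood in 17 peaks (3.90%, all optimal peaks 6.02%) against 0.229% of flanks (exact sign test, adjusted p = 0.000145). The variant CATGTG stood in 69 (15.8%, all optimal peaks 17.1%) against 3.10% of flanks (exact sign test, adjusted p = 7.40e-10). GAGAGA was the most frequent of the 6, in 161 peaks (36.9%, all optimal peaks 30%) against 6.08% of flanks (exact sign test, adjusted p = 1.60e-26). ACGCAG stood in 103 (23.6%, all optimal peaks 20.5%) against 2.64% of flanks, and CGTCTC in 116 (26.6%, all optimal peaks 22.7%) against 4.24% of flanks (exact sign tests, adjusted p = 2.20e-19 and 3.90e-19). The E-box, its longer form and its variant were less frequent at tandem summits than over all optimal peaks, and the other words more frequent. All optimal peaks include the tandem peaks, and no difference between these shares was tested. The shares are thus not shown to be particular to tandem gaps. The GAGAGA share was near the 34.9% of intronic summits, so it is not shown to be particular to tandem gaps either.

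The compound CTGCGTCTC, searched after the data had been seen, stood in 67 summit windows (15.4%, all optimal peaks 12.5%) against 0.573% of flanking windows (exact sign test, adjusted p = 3.98e-17), and 70 windows held both ACGCAG and CGTCTC, joined or apart. CACACA, also searched afterwards, stood in 84 (19.3%, all optimal peaks 17.9%) against 4.36% of flanks (exact sign test, adjusted p = 1.45e-10). TTTCAG, the usual end of a worm intron, and TATAAA, both also examined afterwards, were scarcer at summits than in the flanks. They had 4.36% against 23.1% and 4.36% against 11.6% (exact sign tests, adjusted p = 1.42e-15 and 0.000145). The choice of members put every summit outside protein-coding genes, while flanking windows could run into them. Of the 436 windows on the downstream side, 195 reached the downstream gene's start or lay past it. How far this choice fixes the scarcity of TTTCAG was not tested. The base composition of summits and flanks also differed. G and C made up 48.4% of the bases of summit windows on average, against 35.2% and 35.3% in the flanks. The part of base composition in the word counts was not tested. No hexamer of the 5 was found in 123 summit windows (28.2%), whose median signal was 70.2, and 2 or more were found in 141 (32.3%), with a median of 83.3. Among the 77 windows with an E-box, which was searched only up to 50 bp away, its nearest copy lay at a median of 15.5 bp from the summit and within 25 bp in 55. Of these copies, 16 read ACACGTGA and 15 TCACGTGA, each on 1 strand or the other.

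**Figure D3:**
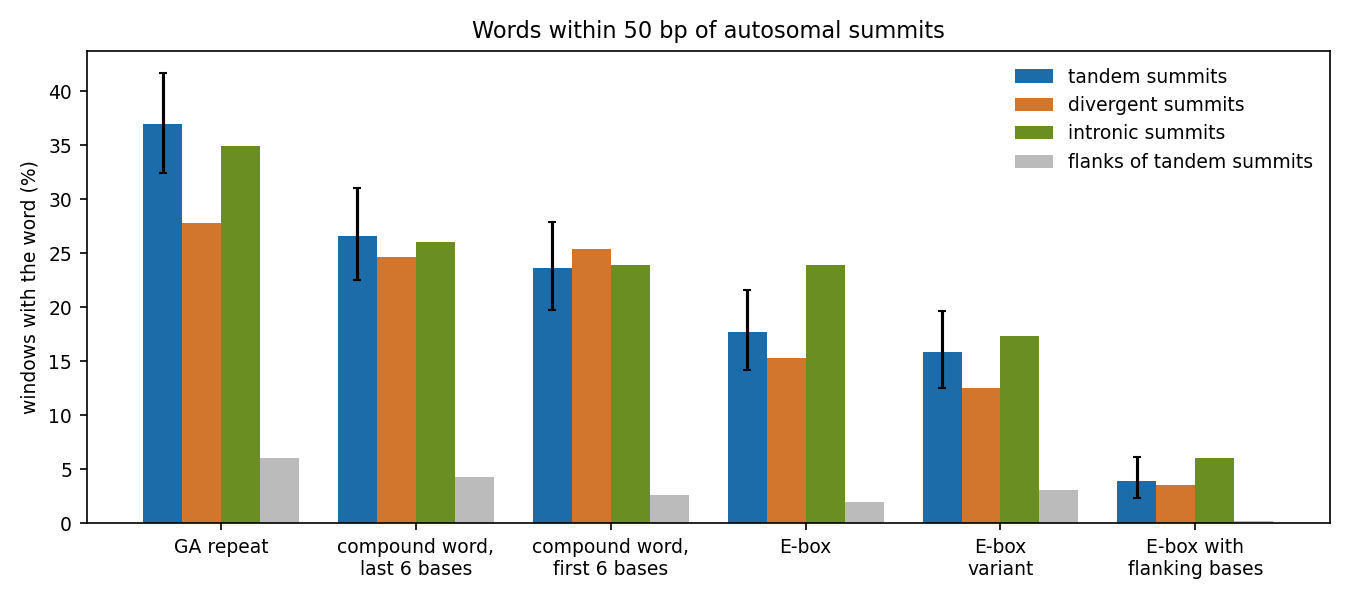
Share of windows within 50 bp of the summit that hold each word, for tandem (with exact 95% binomial intervals), divergent and intronic autosomal peaks and for windows 500 bp to either side of tandem summits. Every word is several times more frequent at summits than in the flanks, and the GA repeat stands in 36.9% of tandem, 27.8% of divergent and 34.9% of intronic windows.

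Few differences between tandem peaks and the other classes passed the test for these words. Of 12 comparisons with divergent and intronic peaks, 1 passed Fisher's exact test over peaks after Benjamini-Hochberg adjustment. GAGAGA was more frequent at tandem than at divergent summits, with 36.9% against 27.8%, a difference of 9.15 points (interval 3.16 to 15.1, adjusted p = 0.0386 by Fisher's exact test). That call was lost in 6 alternative settings, with differences between 4.74 and 9.08 points, all positive, among them the replicate 1 list alone (7.40 points, Fisher's exact test, adjusted p = 0.158). CACGTG stood in 17.7% of tandem and 15.3% of divergent summits (difference 2.38 points, interval -2.35 to 7.20, adjusted p = 0.763 by Fisher's exact test). Against the 23.9% of intronic summits with it, the difference was -6.22 points (interval -11.8 to -0.662, adjusted p = 0.181 by Fisher's exact test), which did not pass after adjustment. Within tandem peaks, CACGTG was found in 15.1% of the 192 peaks within 500 bp of the downstream start and 19.7% of the 244 beyond (Fisher's exact test, p = 0.255). GAGAGA was found in 31.3% of the near and 41.4% of the far peaks (p = 0.0357 by Fisher's exact test, adjusted over 6 words 0.214), so the difference missed the threshold.

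The direction of the repeat followed the direction of transcription. Of 157 tandem summit windows with GAGAGA on 1 strand only, 117 (74.5%, exact interval 67.0 to 81.1) had it on the antisense strand, so that TCTCTC was read along the sense strand as in the ubc-8 and hil-7 windows (two-sided exact binomial test, p = 5.95e-10, adjusted over 6 words 3.57e-09). In the mtm-3 window the repeat ran the other way, with GAGAGA on the sense strand. The share was the same near and far: 44 of 59 windows (74.6%) within 500 bp of the downstream start and 73 of 98 (74.5%) beyond. It stayed between 70.7% and 74.5% in windows of 101 bases with each replicate list alone, among the 979 strongest peaks, in gaps of at least 500 bp, with noncoding genes counted as neighbours and beyond 500 bp from the start.

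The parts of the compound word also had a direction. CTGCGT was read along the sense strand in 65 of 101 windows (64.4%, interval 54.2 to 73.6, exact binomial test, p = 0.00508, adjusted 0.0102), and CGTCTC in 73 windows against 35 (67.6%, interval 57.9 to 76.3, p = 0.000326, adjusted 0.000978). Since both lie in the compound word these counts are not independent. The whole of it was read along the sense strand in 43 of 66 windows (65.2%, exact binomial test, adjusted p = 0.0280), as in the sqst-1, epg-9 and C01G6.4 windows. The call rested on windows beyond 500 bp from the start, with 31 of 40 (77.5%, exact binomial test, p = 0.000680), against 12 of 26 (46.2%, p = 0.845) within 500 bp. Beyond 500 bp from the start CTGCGT was on the sense strand in 43 of 61 windows (70.5%, exact binomial test, p = 0.00187) and within 500 bp in 22 of 40 (55.0%, p = 0.636). CGTCTC was on it in 47 of 65 far windows (72.3%, exact binomial test, p = 0.000422) and 26 of 43 near ones (60.5%, p = 0.222). The near and far shares did not differ beyond the threshold for any of these, with adjusted p = 0.0984 for the compound word, 0.416 for CTGCGT and 0.429 for CGTCTC (Fisher's exact tests, 6 words, added after the data were seen). Among the 979 strongest peaks the share for CTGCGT was 60.3%, which did not pass (exact binomial test, p = 0.130). CATGTG was on the sense strand in 31 of 62 windows and CACACA in 38 of 82, neither of which passed (exact binomial test, adjusted p = 1 and 0.697). CACGTG reads the same on both strands and has no direction.

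Part of this direction was present outside the summits. In windows centred 500 bp towards the upstream gene, TCTCTC was on the sense strand in 19 of 25 (76.0%), and in windows 500 bp towards the downstream gene in 10 of 27 (37.0%). The share at summits differed from that on the downstream side (Fisher's exact test over windows, p = 0.000221, adjusted over 18 differences 0.00399), and 195 of the 436 windows on that side reached the downstream gene's start or lay past it. At intronic summits TCTCTC was read along the strand of the host gene in 76 of 122 windows (62.3%, interval 53.1 to 70.9), and its difference from tandem summits missed the threshold after adjustment (p = 0.0363 by Fisher's exact test, adjusted 0.303). CTGCGT was on the host strand in 58 of 86 intronic windows (67.4%) and CGTCTC in 60 of 92 (65.2%), with no difference from tandem summits that passed the test (Fisher's exact test, adjusted p = 1 for both). The direction of these words is thus not shown to be particular to tandem gaps.

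**Figure D4:**
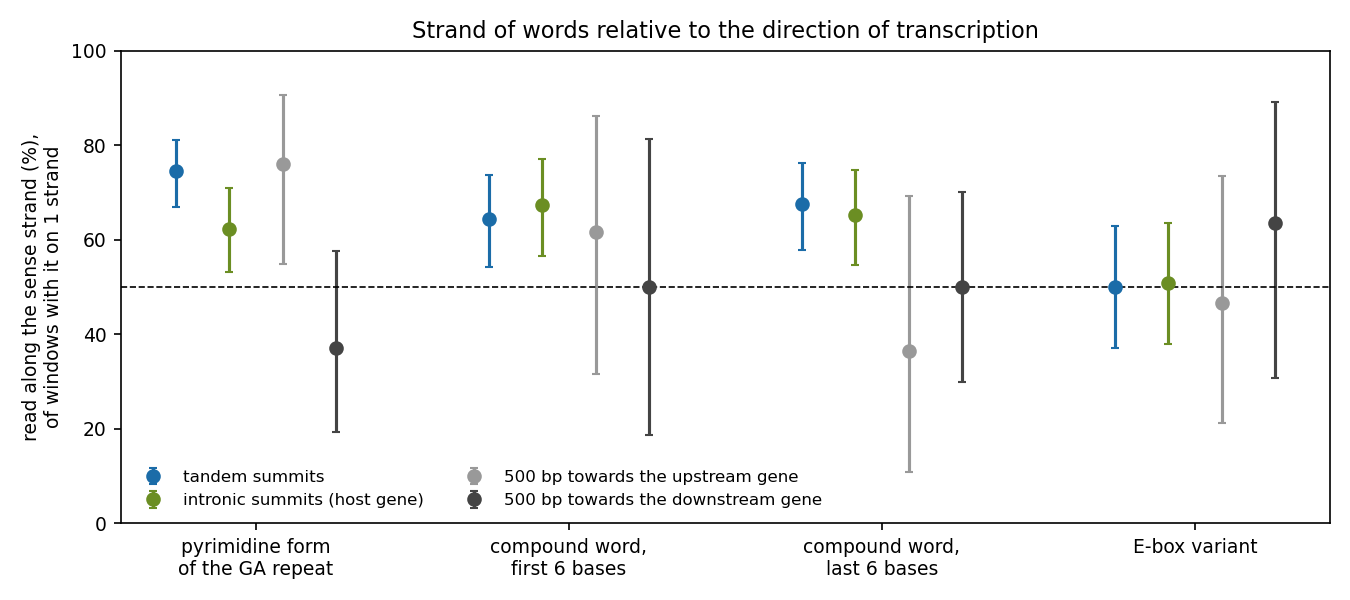
Share of windows in which a word reads along the sense strand, of windows that hold it on 1 strand only, with exact 95% binomial intervals and an even split dashed. At tandem summits the pyrimidine form of the GA repeat (TCTCTC) is at 74.5%, the first part of the compound word (CTGCGT) at 64.4%, its last part (CGTCTC) at 67.6% and the E-box variant (CATGTG) at an even split, and at intronic summits TCTCTC is at 62.3% along the host gene.

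Autophagy genes were often downstream of a gap with a peak. Of 29 autophagy genes on the list, 17 were downstream of an autosomal tandem gap, and 9 of those gaps (52.9%) held a peak, against 4.51% of all 8716 downstream genes. Within 500 bp of the start the count was 6 of 17, against 2.2% of all downstream genes. The list was chosen with earlier results of these data known and has no test. Besides lgg-1, sqst-1 and epg-9 the genes were atg-9, which encodes the membrane protein of autophagy vesicles (signal 324, rank 62 in replicate 1 and 73 in replicate 2), and atg-18, a phosphoinositide-binding effector (264, ranks 94 and 113). Further ones were epg-4, a gene acting on autophagosome maturation (200, ranks 171 and 183), and atg-13, of the initiating kinase complex (70.2, ranks 755 and 1244). The last were epg-8 and bec-1, both of the lipid kinase complex that nucleates autophagosomes (68.1 and 59.1, ranks 1013 and 1228 for epg-8 and 1247 and 1715 for bec-1). The signals fall into 2 sets, 6 genes at 200 or above and 3 at 70.2 or below.

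The place of the summit differed between these genes. It lay 148 bp before the start of atg-9, 165 bp before epg-4, 215 bp before epg-8, 222 bp before atg-18 and 410 bp before atg-13. It lay 1127 bp before bec-1, 1323 bp before epg-9 and 1628 bp before sqst-1, where it was 500 bp from the end of mrpl-51. The lgg-1 gap of 1487 bp held 2 peaks, the stronger 877 bp and the weaker, with a signal of 181, 236 bp before the start. The atg-9 gap held a second, weak peak with 62.0, which ranked 558th in replicate 1 and 3645th in replicate 2. Of these 11 peaks CACGTG stood in 2, those nearest to atg-9 and atg-13, in the atg-13 window as TCACGTGA. ACGCAG stood in 4, CGTCTC in 4, GAGAGA in 3 and CATGTG in 2, counting both strands. Over all optimal peaks the shares were 21.8% for CACGTG, 20.5% for ACGCAG, 22.7% for CGTCTC, 30% for GAGAGA and 17.1% for CATGTG. No difference of these 11 peaks from those shares was tested.

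**Figure D5:**
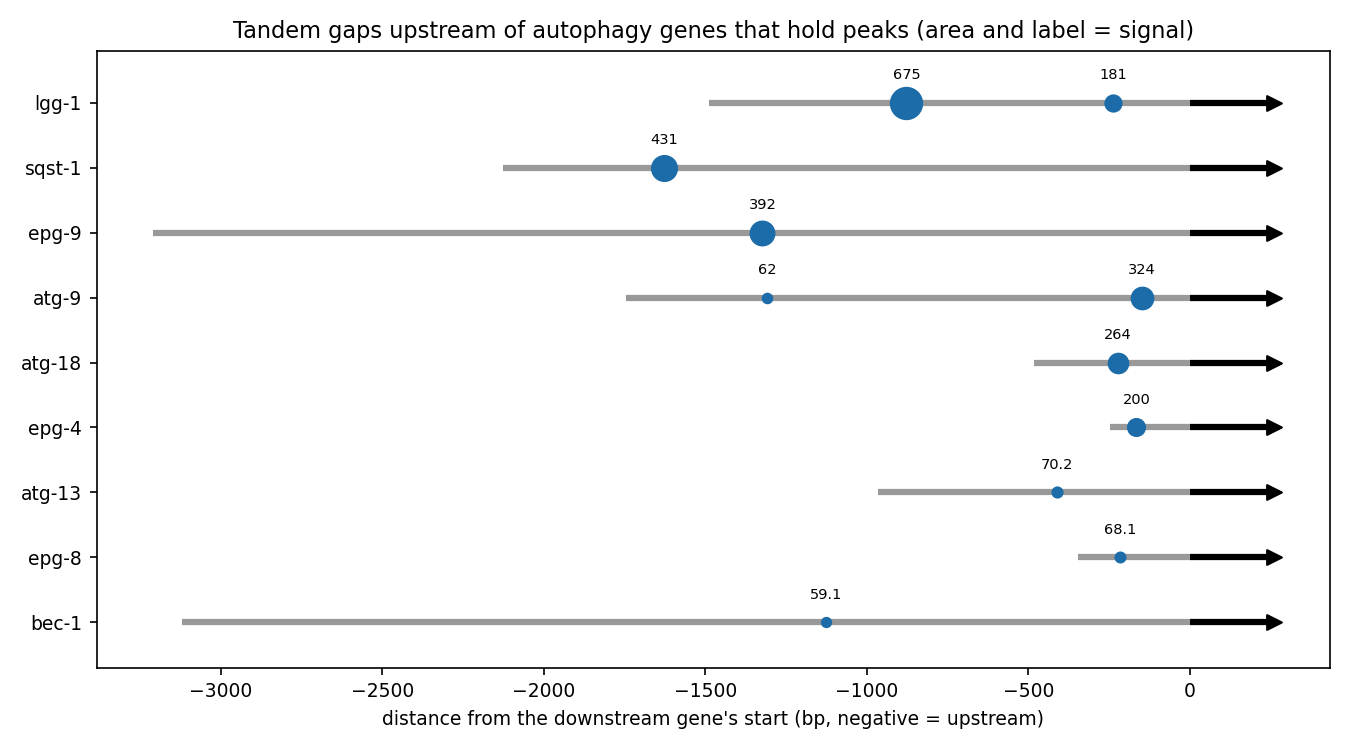
Tandem gaps upstream of the 9 autophagy genes with peaks, drawn to scale with the start of the downstream gene at 0 (black arrow) and the gap in grey, with the upstream gene's end at its left edge. Each circle is a peak at its summit, with area and label giving its signal, and the strong peaks of lgg-1, sqst-1 and epg-9 lie 877 to 1628 bp before the start while those of atg-9, atg-18 and epg-4 lie within 222 bp.

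Other genes of nutrient signalling and the lysosome gave smaller counts than the autophagy list, to be read against the 4.51% of all downstream genes, and no difference between lists was tested. Of 12 genes of TOR and AMP-activated kinase signalling downstream of a tandem gap, 2 (16.7%) had a peak in it, aakg-1 (a second peak of 102 lay 754 bp before its start) and rsks-1, the S6 kinase gene (68.8). Of 17 genes of lysosomal proteins 1 (5.88%) had a peak, the cathepsin gene cpl-1 (136), which lay 258 bp from the end of the upstream gene and 3285 bp from its own start. None of 9 genes of the vacuolar ATPase, which acidifies the lysosome, had one. Among 16 genes of endosomes and membrane traffic it was unc-108 alone (6.25%), which encodes a Rab GTPase, with a signal of 281 at 39 bp before the start and TCACGTGA within 50 bp of the summit.

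Cytosolic ribosomal protein genes often had a peak in the tandem gap before them, and most of these gaps were short. Of 24 such genes downstream of a tandem gap, 11 (45.8%, all downstream genes 4.51%) had a peak in it and 10 had one within 500 bp of the start (41.7%, all downstream genes 2.2%). The strongest was that of rpl-14 (241, ranks 176 and 107), followed by rpl-3 (169), rla-0 (126) and rpl-18 (117). Their summits lay between 183 and 302 bp before the start in all but rps-25. Its peak lay 13834 bp away and 251 bp from the upstream gene's end. The other gaps were only 480 to 755 bp long, so most places in them are within 500 bp of the start. In these gaps the summits lay 223 to 509 bp from the upstream gene's end. That end was nearer than the start for rpl-14 (242 against 302 bp) and rps-8 (223 against 288 bp). Signals were modest, with 48.5 for rps-8 as the lowest, and the rps-8 peak ranked 8309th in replicate 1. CACGTG stood in 2 of the 11 and the repeat GAGAGA in 3, where 21.8% and 30% of all optimal peaks had them. None of 33 mitochondrial ribosomal protein genes downstream of a tandem gap had a peak.

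The other housekeeping lists had few members downstream of a tandem gap, and their shares are again to be read against 4.51% of all downstream genes. Of 20 genes on the chaperone list, which also holds the heat shock factor gene hsf-1, 4 (20%) had a peak. They were hsf-1 (118), dnj-9 (87.2), hsp-1 (68.8) and hsp-12.2 (61.4). Of 11 splicing factor genes 3 (27.3%) had one, rsp-8 (132), snr-4 (103) and rsp-6 (56.8), and of 10 proteasome genes 2 (20%), rpn-13 (98.1) and rpn-11 (48.3). Translation factors had 2 of 14 (14.3%), eif-2A (64.2) and eif-3.C (63.2), and the respiratory chain 1 of 18 (5.56%), near the share of all, cyc-1 (51.7). The histone list had 1 of 4, his-37 (87.7), and did not hold the linker histone gene hil-7 (443). None of 13 aminoacyl-tRNA synthetase genes and none of 9 glycolysis genes had one. Of 12 genes of bHLH factors, the family of HLH-30 itself, 2 (16.7%) had peaks. The gap before mml-1, a Mondo-type nutrient-responsive factor gene, held 2 peaks, the stronger at 163, both with CACGTG, and that before hlh-2 held 1 at 90.6.

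Large families of the worm genome had few. Of 807 chemoreceptor genes downstream of a tandem gap 1 had a peak, str-230 (56.8), and of 54 cuticle collagen genes none. The list of F-box protein genes had 2 of 156, fbxb-66 (114) and fbxc-36 (70.8). That list did not hold lin-23 (375), fbxo-11.2 (109) and fbxl-2 (103), which also had a tandem peak. C-type lectin genes had 2 of 127, clec-126 (67.0) and clec-146 (55.9). Nuclear hormone receptor genes had 7 of 147 (4.76%), near the 4.51% of all, led by nhr-20 (227), nhr-10 (124), nhr-88 (98.6 for the stronger of 2 peaks) and nhr-49, a regulator of fat metabolism (77.4). Homeobox genes named ceh had 2 of 25, ceh-20 (78.3) and ceh-43 (55.4). The tissue marker lists were short: 2 of 8 neuron markers had a peak, snb-1 (61.1) and unc-31 (55.2), and none of 2 intestine, 2 body wall muscle and 2 epidermis markers. Because whole embryos were used, the cells in which a peak is bound are not known.

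Some tandem peaks lay at noncoding genes, which the choice of members had not considered. A noncoding gene lay within 100 bp of the summit in 64 of 436 tandem peaks (14.7%), where it did in 20.3% of all optimal peaks. The share was 17.5% of divergent peaks (tandem minus divergent -2.78 points, interval -7.44 to 1.97, Fisher's exact test over peaks, adjusted p = 0.286). It was 29.4% of intronic peaks (tandem minus intronic -14.7 points, interval -20.4 to -9.05, adjusted p = 8.09e-07 by Fisher's exact test). Of the 64, 53 were near a gene of the general class ncRNA, 11 near a small nucleolar RNA gene, 5 near a transfer RNA gene and 3 near a small nuclear RNA gene. At the 504 divergent peaks the counts were 73 for ncRNA, 7 for small nucleolar RNA, 7 for transfer RNA and 1 for small nuclear RNA. At the 381 intronic peaks they were 76, 26, 33 and 5, in the same order. Differences for single kinds of noncoding gene were not tested. No share of noncoding genes over all introns or all tandem gaps was set beside these shares. The strongest tandem peaks at a small nucleolar RNA gene lay upstream of T02E1.2 (220, by T02E1.9) and M04B2.7 (211, by F12F6.11). Those at small nuclear RNA genes were by sls-2.4 upstream of egg-5 (137), by T11F9.15 upstream of snr-4 (103) and by sls-2.2 upstream of C17C3.24 (48.6).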

How the data were processed

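ChIP-seq peaks of HLH-30-GFP were deposited as narrowPeak lists for each replicate, for both pooled, and as an optimal list made by irreproducible discovery rate, per the file descriptions that the authors deposited. The lists in ce11 were used. The authors' signal value is made against a control, which was not analysed here. Neither its scaling by depth nor the aligner, caller and cut-off were stated (not given in the sources used here). The replicate 2 list ends at 30000 peaks, a round number. Depth is unknown, and intervals cover the counting of peaks only, not differences between embryo collections.

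Summits came from the offset in each row. Ensembl 115 gene models gave 19973 protein-coding genes, and only these counted as neighbours and spans. Both strands were searched for words, up to 50 bp from the summit. Tests were two-sided, exact sign, binomial or Fisher's, with Benjamini-Hochberg adjustment within each family, and a logistic fit over gaps (Python 3.11.15, SciPy 1.17.1, statsmodels 0.14.6, pandas 2.3.3). The search for neighbouring genes was checked at random positions of the gene models. The gap fit, the word search, the sign test and Fisher's test were checked on simulated data. The reading of word directions was not checked in this way.

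The members, words and 26 gene lists were chosen with earlier results of these data known. The compound CTGCGTCTC, the hexamer CACACA, the intron-end TTTCAG, the hexamer TATAAA, and the directions of words other than the repeat and ACGCAG, were examined after these data were seen, as were the directions in flanks and introns and near and far from the start. The pattern for chemoreceptor genes was narrowed after its count was seen, because it took in src-2, a kinase gene. Genes named were those of the 20 strongest members after keeping the strongest of summits within 500 bp, up to 4 of each list, those of the 5 strongest members with TCACGTGA and the 3 members at the list's lower end. Others, chosen after their values were seen, are those in gaps with 3 or more peaks, in short gaps and by noncoding genes, and the remaining autophagy and nuclear hormone receptor genes. Alternatives used each replicate's strongest 1959 peaks alone, the 979 strongest peaks of the list, merged summits, noncoding genes and pseudogenes as neighbours, gaps of at least 500 bp, and other windows and distances.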

Additional observations from a re-analysis of the deposited data

How the results depend on the processing

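Each of 15 values was recomputed under the settings that apply to it, 15 in all, and 94 of the alternative values stayed on their side of the test's threshold with the same sign or, with no test, moved by less than the interval. The other 17 follow. With noncoding genes and pseudogenes as neighbours, the share of tandem peaks within 500 bp of the downstream start was 54.7%, CACGTG near minus far was -9.18 points (Fisher's exact test, p = 0.0179), GAGAGA tandem minus divergent 8.55 and the replicates' tandem minus other difference 4.25. In gaps of at least 500 bp the share near the start was 35.8% and the GAGAGA difference 9.08, and counting up to 1000 bp from the start gave 55.7%. These shares follow from which gaps and distances are counted. Among the 979 strongest peaks the GAGAGA difference was 8.52, the sense share of ACGCAG 39.7% and the replicates' difference reversed to -0.167. Windows of 25 and 100 bp gave GAGAGA differences of 4.74 and 8.52, and matching within 50 bp a replicates' difference of 4.27. With 1 replicate left out, CACGTG tandem minus intronic lay between -7.90 (Fisher's exact test, adjusted p = 0.0392, replicate 2 alone) and -2.68, and GAGAGA tandem minus divergent between 7.40 and 9.22. With only peaks within 500 bp of the start, the sense share was 45% for ACGCAG (p = 0.636) and 60.5% for CGTCTC (p = 0.222, exact binomial tests). For these the cause was not tested. The direction of GAGAGA, the position in the gap, CACGTG at summits, the log odds for tandem gaps and the noncoding difference from introns kept their calls in every setting run. No paired analysis was possible because there is a single group. The limits are 2 replicates of 1 strain, an unknown depth and the authors' list floor.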
